A study of Mus musculus with 6 samples.

Results

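The genes described here are 9 that make, carry, sense or remove retinoic acid: the nuclear receptor genes Rara, Rarb, Rarg and Rxra, the binding protein genes Crabp1 and Crabp2, the synthesis enzyme genes Aldh1a2 and Aldh1a3, and the degrading enzyme gene Cyp26b1. They are 9 of the 19938 genes measured, and each was read by its only probe set, annotated to that gene alone. The study sorted cells from the brains of C57BL/6J mice by flow cytometry with a pair of fluorescent reporters and hybridised the total RNA of each sample to its own Affymetrix whole-transcript array. The 3 GFP+ samples are described as cortical neural progenitors, and the 3 RFP+ samples as the neurons those progenitors give rise to. The labels name no other treatment or allele. The promoters that drive the reporters, the age of the animals, the number of animals per sample and the region from which the RFP+ cells were taken, beyond the brain, are not given in the sources used here.

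Retinoic acid is made from vitamin A in an oxidation by alcohol and retinol dehydrogenases, followed by an oxidation by retinaldehyde dehydrogenases such as Aldh1a2 and Aldh1a3. Cellular retinoic acid binding proteins carry it in the cytosol, Cyp26 enzymes destroy it, and retinoic acid receptors paired with retinoid X receptors bind DNA and turn nearby genes up when the ligand is present. In the developing forebrain the meninges are a known source of retinoic acid, and the balance of synthesis and degradation limits where the signal acts.

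The sort was checked against markers. The 10 radial glia markers summed to 45264 to 46267 intensity units on GFP+ arrays and to 11894 to 13088 on RFP+ arrays, and 9 of them were higher in GFP+ progenitors. The 10 neuronal markers summed to 20524 to 22434 on GFP+ arrays and to 49736 to 53297 on RFP+ arrays, and all 10 were higher in RFP+ neurons. GFP+ arrays were also higher for markers of endothelial cells (10 of 10, sums of 2181 to 7073.5 against 687.75 to 992.64 on RFP+ arrays), pericytes and mural cells (8 of 8, 6156.2 to 7938 against 614.49 to 729.02), oligodendrocyte precursors (5 of 5, 1257.9 to 1892.6 against 197.84 to 221.58) and meningeal fibroblasts (6 of 11, 1802.4 to 1986.9 against 963.15 to 1142.9). Cspg4 is on both the mural and the oligodendrocyte precursor list and is counted in each. RFP+ arrays were higher for markers of Cajal-Retzius neurons, early-born cells of the cortical surface (6 of 7, sums of 914.9 to 1241.3 on GFP+ arrays against 3331.7 to 4692 on RFP+ arrays). By the test given below, 13.7% of all genes were higher in GFP+ progenitors and 16.2% in RFP+ neurons. No marker on these lists was at 0 on any array. The part of these other cells in the results below was not tested, and in sorted bulk samples more cells of a type and more RNA per cell cannot be told apart.

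**Figure D1:**
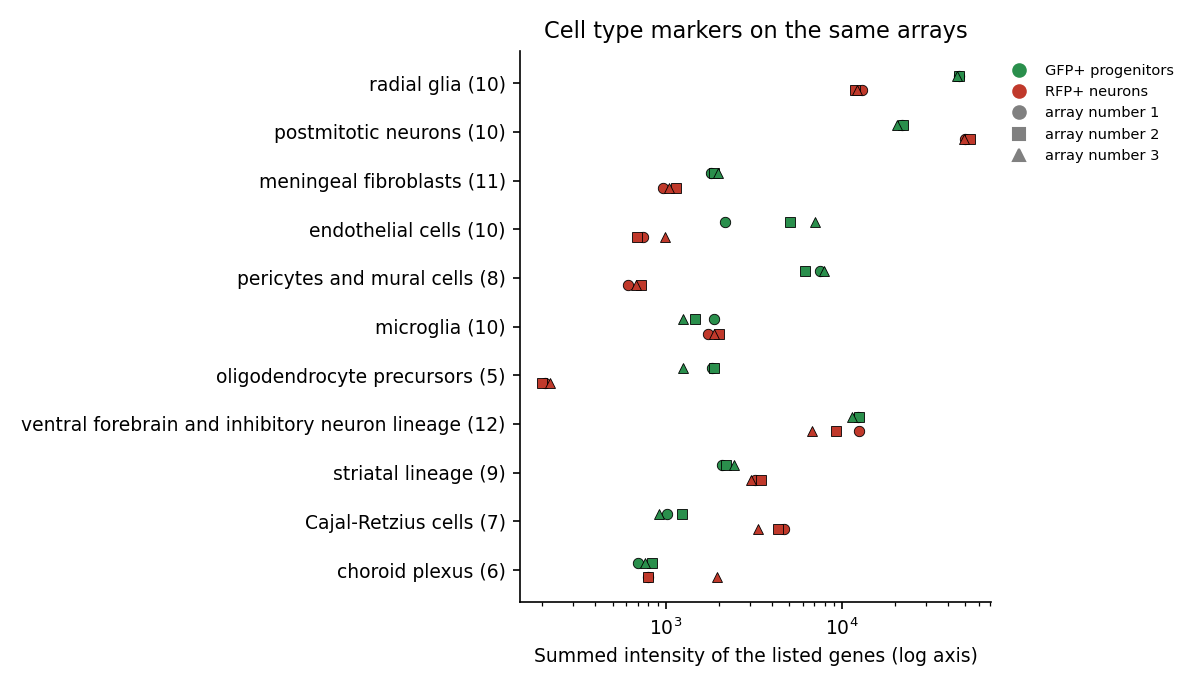
Summed intensity (log axis) of each cell type marker list, with its number of measured genes in brackets, on the 3 GFP+ progenitor arrays (green) and the 3 RFP+ neuron arrays (red); symbols mark the array number. Endothelial, mural and oligodendrocyte precursor sums lie higher on all 3 GFP+ arrays, and neuronal and Cajal-Retzius sums lie higher on all 3 RFP+ arrays. A red blood cell list, with 1 of its 6 genes measured, is not shown.

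Of the 9 genes, 3 were higher in GFP+ progenitors (Rara, Rxra and Crabp2), 2 were higher in RFP+ neurons (Rarg and Crabp1) and 4 did not pass the test. The test was limma on log2(intensity + 16), GFP+ minus RFP+, with a Benjamini-Hochberg adjusted p under 0.05 over all genes. The share of all genes past that threshold was 30%, with 13.7% higher in GFP+ and 16.2% higher in RFP+. The differences that passed were 1.50-fold to 2.25-fold on that scale, where the offset of 16 shrinks the changes of dim genes. The median size of the log2 difference, either way, was 0.58 over the 9 genes and 0.37 over all genes. For 6 of the 9 genes no value of one group fell within the range of the other, as for 43.9% of all genes; GFP+ lay above for 3 of them (19.9% of all genes) and below for 3 (24.1%). These genes were chosen with earlier results of these data known, so no p-value is attached to the counts. Without RFP+ replicate 3 the count of genes past the threshold was 3, and without both arrays numbered 1 it was also 3. Without the dimmest 50% of genes, where only Rara and Rxra were left to test, it was 2.

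Several of the genes were dim. As a guide to the level of genes not used by these cells, 1016 olfactory receptor genes had 95th percentiles of 201.1 to 224.1 intensity units per array. Rara and Rxra lay above that percentile on all 6 arrays. Rarb, Crabp2, Aldh1a2 and Aldh1a3 lay under it on all 6. Rarg and Crabp1 lay under it on all 3 GFP+ arrays, while Rarg lay above it on 2 RFP+ arrays and Crabp1 on all 3.

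**Figure D2:**
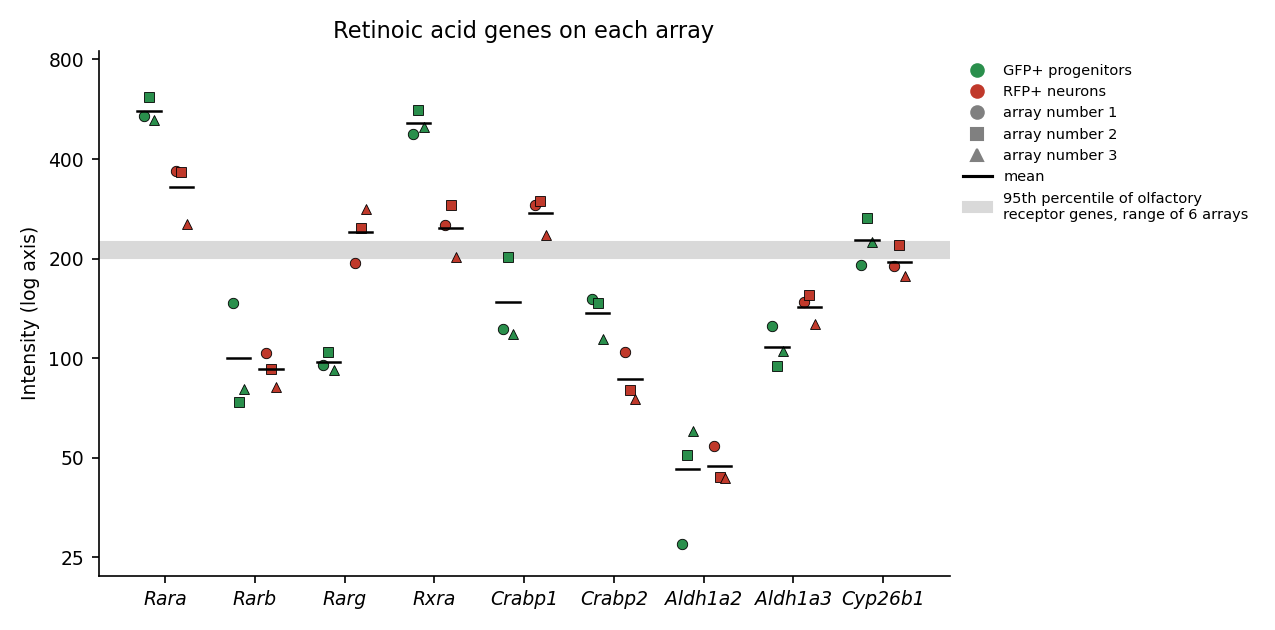
Intensity (log axis) of each of the 9 genes on every array, GFP+ progenitors in green at the left of each pair and RFP+ neurons in red at the right; bars are means of 3 arrays, symbols mark the array number, and the grey band spans the per-array 95th percentiles of olfactory receptor genes (201.1 to 224.1). Rara and Rxra are higher on all GFP+ arrays, Rarg and Crabp1 are higher on all RFP+ arrays, and Rarb, Crabp2, Aldh1a2 and Aldh1a3 stay under the band.

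The receptors did not move together. Rara encodes retinoic acid receptor alpha, a ligand-dependent transcription factor with broad expression. Its intensity was 539, 618 and 524 on the GFP+ arrays, against 369, 365 and 254 on the RFP+ arrays. Every GFP+ array lay above every RFP+ array, and the lowest value was that of RFP+ replicate 3. The log2 difference was 0.75 ± 0.21 (SE, n = 3 arrays each), 1.69-fold higher in GFP+ progenitors, with a limma adjusted p of 0.0099. Without RFP+ replicate 3 the difference was 0.59 and the adjusted p was 0.0723, so this call rests on that array.

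Rxra encodes retinoid X receptor alpha, the partner that retinoic acid receptors and several other nuclear receptors need to bind DNA. Its intensity was 476, 563 and 499.6 on the GFP+ arrays, against 252, 290.4 and 202 on the RFP+ arrays. All 3 GFP+ values lay above all RFP+ values, and means were 512.6 ± 44.9 in GFP+ progenitors and 248.3 ± 44.2 in RFP+ neurons (SD, n = 3 each). Rxra was 2.01-fold higher in GFP+ progenitors, with a log2 difference of 1.01 ± 0.21 and a limma adjusted p of 0.000785. It passed under all 17 alternative settings, with differences of 0.88 to 1.12.

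Rarg encodes retinoic acid receptor gamma. It went the other way, with intensities of 95.1, 105 and 92.4 on the GFP+ arrays, against 194, 247 and 282 on the RFP+ arrays. The GFP+ values lay close together under the olfactory receptor percentile, and every RFP+ value was above them. Rarg was 2.25-fold higher in RFP+ neurons (log2 difference -1.17 ± 0.21, limma adjusted p = 0.000181), the largest difference among the 9 genes. It passed in all 16 alternative settings in which it was tested, between -1.31 and -0.91. Its GFP+ level was dim, so the size of the fold depends on the offset of 16.

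Rarb encodes retinoic acid receptor beta, whose gene is itself a textbook target of retinoic acid and which is known in the forebrain for the striatum. Its intensity was 147, 73.7 and 80.7 on the GFP+ arrays, against 104, 92.5 and 81.6 on the RFP+ arrays. The groups overlapped, with GFP+ replicate 1 above all RFP+ arrays and the other GFP+ arrays under all of them. The log2 difference was 0.05 ± 0.23, with a 95% interval of -0.43 to 0.54 (limma adjusted p = 0.888). On the list of striatal markers, 1 of 9 genes was higher in GFP+ progenitors and 2 in RFP+ neurons, 33.3% past the threshold against 30% of all genes. The 9 summed to 2105.1 to 2440.9 on GFP+ arrays and to 3076.8 to 3505.9 on RFP+ arrays. The genes that passed were Ebf1 (2.42-fold higher in GFP+), Ppp1r1b (6.24-fold higher in RFP+) and Drd1 (3.12-fold higher in RFP+).

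The promoter windows of the receptor genes are shown because retinoic acid receptors bind direct repeats of a short half-site, and Rarb is the classic gene with such a repeat at a start. RefSeq windows of 300 bases (250 before a transcription start and 50 from it, build GRCm38.p6) were found for 7 of the 9 genes, 12 windows in all; Crabp2 and Aldh1a3 had none in the table used. The half-site was searched on both strands as the letters AGGTCA. Its known variant AGTTCA was searched as well. A further form searched was GGGTCA on both strands. The last form searched was GGTTCA on both strands. Direct repeats were searched as half-sites with a spacer of 1, 2 or 5 bases (DR1, DR2 and DR5). A half-site inside a repeat was also counted as a half-site. The Rarb window, chr14:16575427-16575726 on the minus strand, is printed 5′ to 3′ with half-sites in capitals; on all lines a half-site on the opposite strand appears as its complement read backwards, such as TGACCT.
Rarb: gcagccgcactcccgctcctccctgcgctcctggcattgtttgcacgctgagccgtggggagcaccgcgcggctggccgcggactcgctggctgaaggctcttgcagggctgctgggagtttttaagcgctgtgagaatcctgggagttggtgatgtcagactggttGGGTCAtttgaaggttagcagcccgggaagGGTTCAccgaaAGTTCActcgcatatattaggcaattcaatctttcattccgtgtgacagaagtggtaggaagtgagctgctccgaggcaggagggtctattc
It held the DR5 element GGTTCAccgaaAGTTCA, which begins 53 bases upstream of this start, at chr14:16575513-16575529. A DR5 was found in 32 of 32851 windows of this length, 0.0974%, and among the 12 windows of the 9 genes only in this one. A comparable element, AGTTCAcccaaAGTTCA on the opposite strand (chr19:37697776-37697792), was found in the window of Cyp26a1, another degrading enzyme gene, which is given here by a choice made after its values were seen. No DR1 or DR2 was found in the 12 windows; these were found in 0.222% and 0.268% of all windows.

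For comparison, windows of the 3 receptor genes that differed between the groups are printed, for each gene the one with the most half-sites. None of their 8 windows held such a repeat, and 4 of the 8 held no half-site. These are Rara at chr11:98939461-98939760 (plus strand, 4 half-sites), Rxra at chr2:27709042-27709341 (plus strand, 3 half-sites) and Rarg at chr15:102257473-102257772 (minus strand, 1 half-site).
Rara: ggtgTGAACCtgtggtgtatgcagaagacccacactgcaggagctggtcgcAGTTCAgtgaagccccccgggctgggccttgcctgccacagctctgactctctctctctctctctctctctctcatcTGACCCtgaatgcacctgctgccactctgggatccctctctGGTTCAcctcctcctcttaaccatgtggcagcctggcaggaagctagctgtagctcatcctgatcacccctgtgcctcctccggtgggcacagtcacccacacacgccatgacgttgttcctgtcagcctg
Rxra: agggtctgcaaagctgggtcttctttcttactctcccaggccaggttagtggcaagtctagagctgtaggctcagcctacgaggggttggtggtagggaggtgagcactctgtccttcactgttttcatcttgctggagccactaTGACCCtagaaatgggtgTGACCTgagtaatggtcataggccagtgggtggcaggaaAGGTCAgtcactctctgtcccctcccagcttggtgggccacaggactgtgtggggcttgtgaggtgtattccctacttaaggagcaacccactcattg
Rarg: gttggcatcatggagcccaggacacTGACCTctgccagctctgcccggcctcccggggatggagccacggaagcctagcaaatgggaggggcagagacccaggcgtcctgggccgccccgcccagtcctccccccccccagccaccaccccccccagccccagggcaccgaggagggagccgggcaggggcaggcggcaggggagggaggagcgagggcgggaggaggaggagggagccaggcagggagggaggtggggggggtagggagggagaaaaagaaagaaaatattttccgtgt
A half-site alone was found in 43.7% of all windows, and in 5 of the 12. A match is only a match of letters, and the absence of one concerns only this window. The only Rarb window lies at a start inside the gene, which spans chr14:16430839-17082331, so the upstream end of the gene was not searched. Rarb, with the DR5 in this window, showed no called difference, and Cyp26a1 did not pass either. The intensity of Cyp26a1 was 53.8, 30.9 and 66.6 on GFP+ arrays, against 44.6, 28.7 and 17.2 on RFP+ arrays (log2 difference 0.53 ± 0.25, limma adjusted p = 0.118). Both were dim on all 6 arrays.

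The 2 binding protein genes went opposite ways. Crabp1 encodes a cytosolic protein that binds retinoic acid and is known to favour its breakdown. Its intensity was 123, 203 and 118 on the GFP+ arrays, against 291, 298 and 235 on the RFP+ arrays. GFP+ replicate 2 came nearest to the RFP+ arrays but stayed under all of them. Crabp1 was 1.81-fold higher in RFP+ neurons (log2 difference -0.86 ± 0.22, limma adjusted p = 0.00615). Differences within the 3 pairs of arrays that share a number were -1.15, -0.52 and -0.91. With both arrays numbered 1 left out, which keeps 2 arrays in each group, the difference was -0.71 and the adjusted p was 0.102.

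Crabp2 encodes the related protein that is known to hand retinoic acid to its nuclear receptor. Its intensity was 151, 147 and 114 on the GFP+ arrays, against 104, 80.1 and 75.4 on the RFP+ arrays. The groups did not overlap, but the lowest GFP+ and the highest RFP+ value lay close together, and all 6 values were under the olfactory receptor percentile. The log2 difference was 0.58 ± 0.21, 1.50-fold higher in GFP+ progenitors, with a limma adjusted p of 0.0400. This call was lost when GFP+ replicate 1 or 2, or RFP+ replicate 2 or 3, was left out (limma gave an adjusted p of 0.104, 0.0956, 0.120 and 0.138 for these), and it passed in 7 of the 15 alternative settings that tested it.

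**Figure D3:**
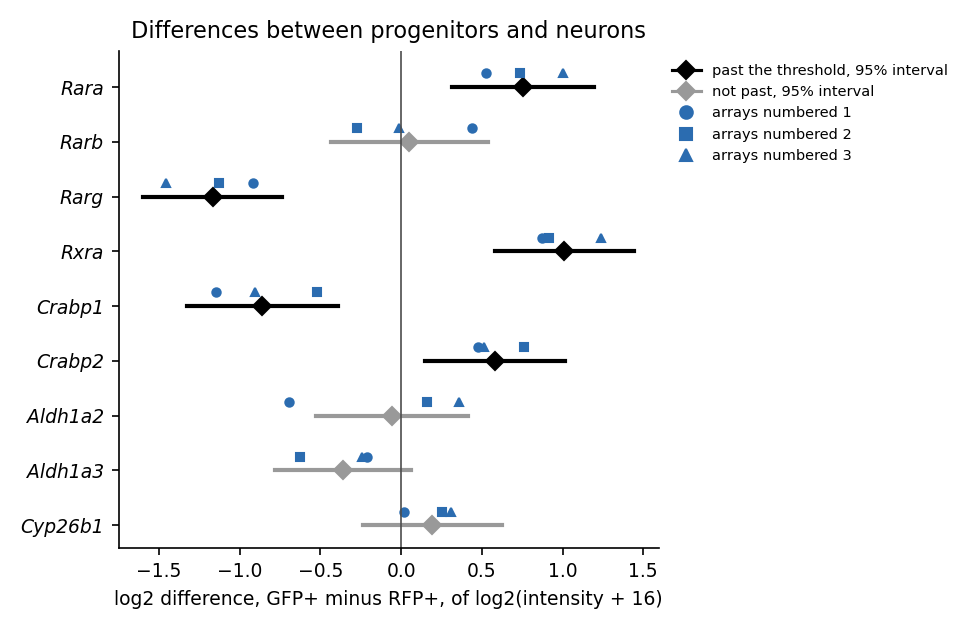
log2 difference (GFP+ progenitors minus RFP+ neurons, of log2(intensity + 16)) of each of the 9 genes with its 95% interval from limma, black where the adjusted p was under 0.05 and grey where it was not; blue symbols give the difference within each pair of arrays that share a number. Rara, Rxra and Crabp2 lie right of 0, Rarg and Crabp1 lie left of it, and all 3 pairs of arrays have the same sign for these 5 genes and also for Aldh1a3 and Cyp26b1, which did not pass.

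Neither synthesis enzyme gene passed the test. Aldh1a2 encodes the retinaldehyde dehydrogenase of the meninges and many embryonic tissues. Its intensity was 27.4, 50.95 and 60.2 on the GFP+ arrays, against 54.2, 43.8 and 43.3 on the RFP+ arrays. The groups overlapped, and it was dim on every array. The log2 difference was -0.06 ± 0.23, with a 95% interval of -0.53 to 0.42 (limma adjusted p = 0.872). Beside this, 6 of 11 meningeal fibroblast markers were higher in GFP+ progenitors, 54.5% against 13.7% of all genes. The other 5 did not pass, at log2 differences of 0.23 for Col1a1, 0.27 for Foxc2, 0.13 for Lum, -0.05 for Dcn and -0.19 for Slc6a13. Of the 6, Foxd1, Tbx18 and Ogn lay under the olfactory receptor percentile on all arrays. The collagen gene Col3a1 was also among the 6 (intensity 272, 204 and 299 on GFP+ arrays, against 28.5, 117 and 69.97 on RFP+ arrays). The fibroblast proteoglycan gene Lum, named like Col3a1 after its values were seen, was dim on all 6 arrays (17.5, 45.0 and 20.8 on GFP+ arrays, against 39.4, 17.0 and 15.7 on RFP+ arrays). Which cells carried these markers was not tested.

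Aldh1a3 encodes another retinaldehyde dehydrogenase, which is known from the ventral forebrain and the eye. Its intensity was 125, 94.5 and 105 on the GFP+ arrays, against 148, 155 and 127 on the RFP+ arrays. All GFP+ values lay under all RFP+ values, but the gap between GFP+ replicate 1 and RFP+ replicate 3 was small. The log2 difference of -0.36 ± 0.20 had a 95% interval of -0.78 to 0.06 and did not pass (limma adjusted p = 0.188). The sum of 12 ventral forebrain and inhibitory lineage markers was 11423 to 12474 on GFP+ arrays and 6800.9 to 12538 on RFP+ arrays. Of these markers, 3 were higher in GFP+ progenitors and 1 in RFP+ neurons, 33.3% past the threshold against 30% of all genes.

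Cyp26b1, which encodes an enzyme that breaks retinoic acid down, did not pass either. Its intensity was 192, 265 and 224 on the GFP+ arrays, against 189.6, 219 and 178 on the RFP+ arrays. The groups overlapped around the olfactory receptor percentile. The log2 difference was 0.19 ± 0.21, with a 95% interval of -0.24 to 0.62 (limma adjusted p = 0.499). For these 4 genes that did not pass, the intervals do not show that the groups were alike.

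**Figure D4:**
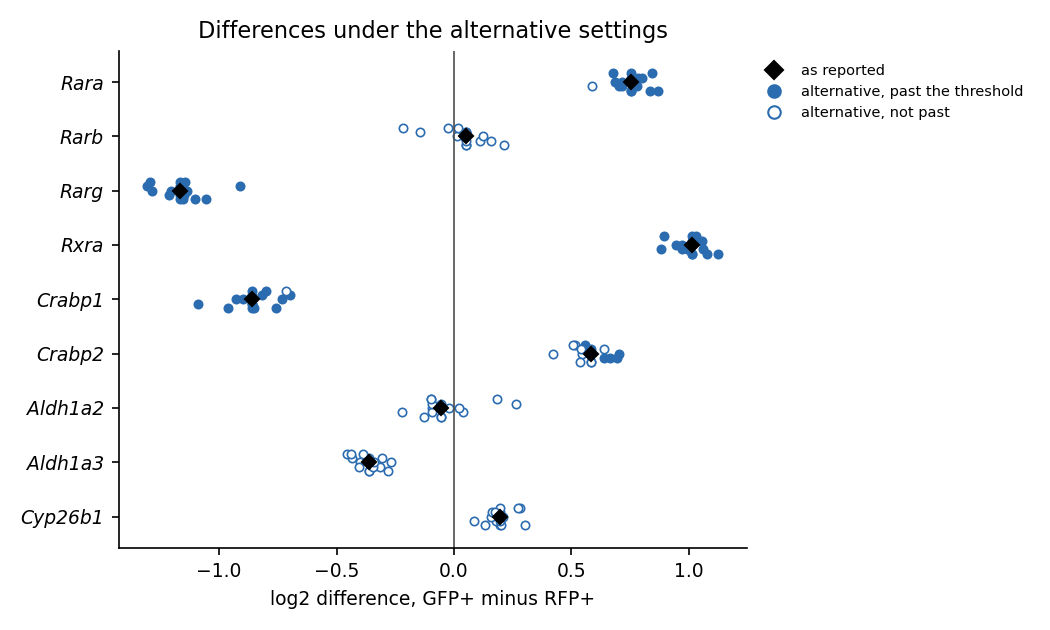
log2 difference (GFP+ progenitors minus RFP+ neurons) of each of the 9 genes as reported (black) and under each alternative setting that tested it (blue, filled where the adjusted p was under 0.05 and open where it was not). Rarg and Rxra are filled throughout, Rara and Crabp1 each have 1 open point, Crabp2 has 8, and Rarb and Aldh1a2 fall on both sides of 0.

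The rest of the retinoid pathway was taken as 5 lists of 77 different genes, of which 72 were measured and 5 are not analysed here. Of the 72, 11 were higher in GFP+ progenitors, 11 were higher in RFP+ neurons and 50 did not pass, so 30.6% passed, near the 30% of all genes. Their median log2 difference was -0.17, against -0.08 over all genes. Of the 22 calls, 14 held in every alternative setting that tested the gene.

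Of 24 genes of retinoid supply and oxidation, 4 were higher in GFP+ progenitors and 1 in RFP+ neurons, with a median log2 difference of -0.18. The share past the threshold was 20.8%, against 30% of all genes. Among those that passed, the largest difference was that of Dhrs3, an enzyme that reduces retinaldehyde back to retinol and is itself known as a retinoic acid responsive gene. Its intensity was 267, 347 and 305 on the GFP+ arrays, against 120.0, 75.2 and 125 on the RFP+ arrays. The groups were well apart, and Dhrs3 exceeded its RFP+ level 2.66-fold in GFP+ progenitors (log2 difference 1.41 ± 0.22, limma adjusted p = 4.43e-05). Rdh5 (1.80-fold) and Dhrs4 (1.76-fold), both short-chain dehydrogenase genes, were also higher there, and the alcohol dehydrogenase gene Adh4 was 1.62-fold higher in RFP+ neurons at a dim level in both groups (54.4 ± 8.0 in GFP+ and 98.3 ± 11.1 in RFP+, SD, n = 3 each). The Rdh5 call ended without RFP+ replicate 2, and the Adh4 call ended without RFP+ replicate 1 or RFP+ replicate 2; both also ended without both arrays numbered 1.

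Closely related enzymes are given here because they share a family with the 9 genes, a choice made after their values were seen. Rdh10, the main embryonic retinol dehydrogenase, was bright and did not pass, at 731.8 ± 104.9 in GFP+ progenitors and 634.2 ± 95.1 in RFP+ neurons (SD, n = 3 each; log2 difference 0.20, 95% interval -0.23 to 0.64). Aldh1a1, a retinaldehyde dehydrogenase gene, was dim in both (98.7 ± 25.6 in GFP+ and 114.8 ± 12.4 in RFP+) and did not pass. Of 4 genes of clearance and cytosolic delivery, 2 passed (50%, against 30% of all genes), both with more signal in RFP+ neurons. They were Fabp5, a fatty acid binding protein gene whose product can also carry retinoic acid (1698.8 ± 261.6 in GFP+ and 2789.9 ± 368.2 in RFP+; 1.64-fold higher in RFP+, limma adjusted p = 0.0134), and Cyp2s1, a cytochrome P450 gene (1.50-fold higher in RFP+, limma adjusted p = 0.0482). Fabp5 missed the threshold when GFP+ replicate 3, RFP+ replicate 1 or both arrays numbered 1 were left out. The Cyp2s1 call ended without any 1 of 5 arrays, all but GFP+ replicate 1, without both arrays numbered 1, and with an offset of 1.

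Of 12 other receptors and heterodimer partners, 3 were higher in GFP+ progenitors and 4 in RFP+ neurons, 58.3% past the threshold against 30% of all genes. The lists were chosen with earlier results known, so no p-value is attached to this share. The thyroid hormone receptor genes, whose products also pair with retinoid X receptors, went opposite ways. Thrb was 2.93-fold higher in GFP+ progenitors, at 111, 145 and 217 on GFP+ arrays against 33.8, 49.8 and 42.2 on RFP+ arrays (limma adjusted p = 2.83e-05). Its RFP+ level was under the olfactory receptor median of 64.2, so the size of this fold depends on the offset. Thra was bright in both and 2.48-fold higher in RFP+ neurons, at 2888.9 ± 203.9 in GFP+ progenitors and 7189.6 ± 532.0 in RFP+ neurons (SD, n = 3 each; limma adjusted p = 3.10e-05). The orphan receptor gene Nr4a1 was 2.25-fold higher in RFP+ neurons. Of the other retinoid X receptor genes, named after their values were seen, Rxrb did not pass (824.8 ± 236.4 in GFP+ and 724.9 ± 80.3 in RFP+, log2 difference 0.15 ± 0.23). Rxrg was 1.58-fold higher in RFP+ neurons at dim levels (42.8 ± 10.1 in GFP+ and 76.9 ± 15.8 in RFP+), a call that ended without GFP+ replicate 3, RFP+ replicate 1 or both arrays numbered 1, with an offset of 64, and with the intensity trend and robust moderation.

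Of 11 cofactor genes, 1 was higher in GFP+ progenitors and 2 in RFP+ neurons, 27.3% past the threshold against 30% of all genes. Nrip1, a corepressor that binds ligand-loaded nuclear receptors and is known as a retinoic acid responsive gene, was 301, 347 and 493 on the GFP+ arrays, against 987, 1015 and 1095 on the RFP+ arrays. It was 2.70-fold higher in RFP+ neurons (log2 difference -1.43 ± 0.22, limma adjusted p = 3.04e-05). The corepressor complex genes Tbl1x and Tbl1xr1 went opposite ways, Tbl1x 1.53-fold higher in GFP+ progenitors and Tbl1xr1 1.84-fold higher in RFP+ neurons. The Tbl1x call ended without GFP+ replicate 1, GFP+ replicate 3, RFP+ replicate 1, RFP+ replicate 2 or both arrays numbered 1.

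Of 25 genes known as retinoic acid responsive, 4 were higher in GFP+ progenitors, 3 were higher in RFP+ neurons and 18 did not pass, 28% past the threshold against 30% of all genes. Among the genes that passed, the 3 with the largest differences were Foxc1, Nrip1 and Dhrs3. Foxc1, a forkhead transcription factor gene counted among the meningeal markers too, was 196, 313 and 232 on the GFP+ arrays, against 6.4, 13.5 and 33.2 on the RFP+ arrays (limma adjusted p = 2.98e-08). Its log2 difference of 3.02 ± 0.26 depends on the offset, since its RFP+ level was dim. The median log2 difference of the list was -0.12, against -0.08 over all genes.

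**Figure D5:**
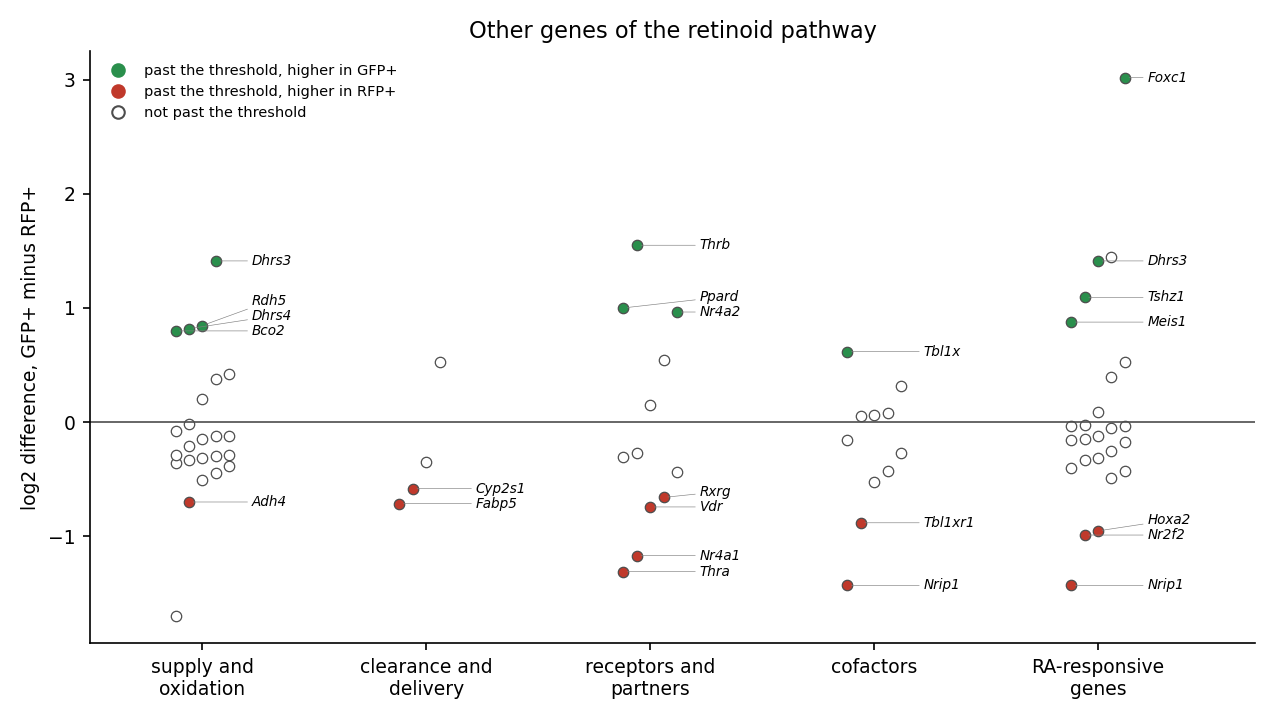
log2 difference (GFP+ progenitors minus RFP+ neurons) of the measured genes of each retinoid pathway list, green and named where higher in GFP+ progenitors, red and named where higher in RFP+ neurons, and open where the limma adjusted p was not under 0.05. Of the 72 genes, 11 are green and 11 are red. Dhrs3, Nrip1, Stra6 and Cyp26a1 are each on 2 lists and so appear in both.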

How the data were processed

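Total RNA of 3 GFP+ and 3 RFP+ sorted samples was measured on 1 array each. The deposited values are intensity values on a linear scale, made by the authors with the Affymetrix Expression Console, per the submitters' processing notes; its version, background correction, normalization and summarisation are not given in the sources used here. Array medians were 210.31 to 221.1, and 53 to 112 probe sets per array were at 0.

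Of 35557 probe sets, 21789 carried 1 gene symbol in the platform annotation, 1621 several and 12147 none. Of the single-gene probe sets 21698 matched RefSeq by Entrez ID, and 0 symbols changed. For each of the 999 genes with several probe sets, the one with the highest mean of log2(intensity + 16) over the 6 arrays was kept, leaving 19938 genes, all tested with no filter. Differences are GFP+ minus RFP+ from limma 3.58.1 (lmFit and eBayes, two-sided, R 4.3.3), adjusted by Benjamini-Hochberg over all genes, with a threshold of 0.05; the 95% intervals use the same moderated errors. Figures were drawn with matplotlib 3.10.9. The procedure was tested on simulated data drawn independently for each array, without the shared deviations of same-numbered arrays described below.

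The members and lists were chosen with earlier results of these data known. Genes named from a pathway list are its 3 passing genes with the largest difference and the largest passing gene the other way; others are stated as chosen after their values were seen. The titles number the samples 1 to 3. Deviations from the group mean correlated across genes at 0.204, 0.288 and 0.361 between a GFP+ and an RFP+ array that share a number. Between those of different numbers the values were -0.267 to 0.00422. The deviations of a gene sum to 0 within a group, so these low values are no separate evidence of pairing. The numbers were treated as pairs in an alternative fit with the number as a block. The labels do not say that the samples came from separate animals, so a p-value here reflects no more than how these samples varied, which may be technical, and the number of arrays limits their precision.

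Alternatives were that block, quantile normalization, median centring, weighting of arrays, robust moderation with an intensity trend, averaging all probe sets of each gene, removal of the dimmest 30% or 50% of genes, offsets of 1 and 64, and leaving out each array or both arrays numbered 1.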

Additional observations from a re-analysis of the deposited data

How the results depend on the processing

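With the replicate number as a block, the same 5 genes passed as without it (adjusted p = 0.00704 for Rara, 0.000793 for Rarg, 0.00135 for Rxra, 0.00496 for Crabp1 and 0.0183 for Crabp2), and the block changed none of the 9 calls; 28 of the 72 other pathway genes and 7366 of all genes passed, against 22 and 5973 without it. Over 17 alternatives the count of the 9 genes past the threshold was 2 to 5. It was 2 without the dimmest 50% of genes, which left only 2 of them to test and 14 of the pathway genes past the threshold, and 3 without both arrays numbered 1, where 3848 of all genes passed. That setting keeps 2 arrays per group. Leaving out 1 array at a time gave 3 to 5 of the 9 genes, 18 to 23 of the pathway genes and 4508 to 5559 of all genes. Crabp2 missed the threshold under median centring, the intensity trend and the offset of 64 (adjusted p = 0.0521, 0.0543 and 0.0577) and without both arrays numbered 1 (0.104); the cause was not tested. Aldh1a2 and Rarb, which never passed, changed sign. The log2 difference of Aldh1a2 was 0.038 under quantile normalization and 0.26 without both arrays numbered 1, and between -0.22 and 0.18 with 1 array left out. That of Rarb was -0.14 without both arrays numbered 1, and between -0.22 and 0.21 with 1 array left out. Rxra and Rarg passed in all settings that tested them, and Rara and Crabp1 in all but the 1 named for each above. Low signal limits Rarb, Crabp2, Aldh1a2 and Aldh1a3, which lay under the olfactory receptor percentile on all arrays.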

Other observations

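Genes with a DR5 of the retinoic acid half-site in a promoter window were 31, of which 11 were measured. Of these, 1 was higher in GFP+ progenitors (Blvrb, 1.63-fold, limma adjusted p = 0.0419) and 2 were higher in RFP+ neurons. Blvrb was 138, 137 and 67.25 on the GFP+ arrays, against 63.2, 81.5 and 42.5 on the RFP+ arrays. Its groups overlapped, and all its values were under the olfactory receptor 95th percentile. Prokr2, a prokineticin receptor gene, was 38.4, 61.8 and 50.8 on the GFP+ arrays, against 237, 255 and 274 on the RFP+ arrays, and its group means were 50.3 ± 11.7 in GFP+ progenitors and 255.4 ± 18.2 in RFP+ neurons (SD, n = 3 each; 4.13-fold higher in RFP+, limma adjusted p = 2.10e-07). Gm1043, a gene without a described function in the sources used here, was 4.58-fold higher in RFP+ neurons. Both were dim in GFP+ progenitors, Prokr2 under the olfactory receptor median of 60.9 and Gm1043 under the 95th percentile, so the sizes of these folds depend on the offset of 16. The share past the threshold was 27.3%, against 30% of all genes, and the median log2 difference was -0.0045. These 3 genes were named after their values were seen.

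Over the 6 arrays, the genes most like each of the 5 that passed, by Pearson correlation of log2 values among genes brighter than the median gene, were Sipa1 and Sall2 for Rara (r = 0.998 and 0.998), Cox6b1 and Etv6 for Rxra (0.998 and 0.998), Lix1 and Tsc22d1 for Rarg (0.999 and 0.998), Sys1 and Myl12b for Crabp1 (0.999 and 0.997), and Pdlim7 and Thoc7 for Crabp2 (0.999 and 0.991). With 6 arrays in 2 groups such values are common: between 489 and 1413 genes correlated above 0.9 with each of the 5.

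Some arrays stood apart for 2 genes of the pathway lists, named after their values were seen. Ttr, which encodes the retinol and thyroxine carrier transthyretin, was 13.9, 8.0 and 61.8 on the GFP+ arrays, against 11.5, 41.3 and 1203.6 on the RFP+ arrays. It is 1 of 6 choroid plexus markers listed, and the others showed no such rise on RFP+ replicate 3. On the RFP+ arrays Kl was 298, 229 and 199, Aqp1 was 197, 166 and 148, and Clic6 was 45.4, 86.9 and 72.0. Otx2 was 89.7, 96.3 and 114 there, and Folr1 was 158, 179 and 220.5. Egr1, an immediate-early gene, was 2616.3, 178 and 121 on the GFP+ arrays, against 1672.6, 26.4 and 32.8 on the RFP+ arrays, so both arrays numbered 1 were high.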
